A study of Mus musculus with 8 samples.

Results

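The genes described here are 6 of the 17041 in the deposited table: Clock, Arntl, Npas2, Rora, Nr1d1 and Nr1d2, the activators of the circadian clock and the ROR and REV-ERB receptors that control them. They were chosen by symbol, with earlier results of these data known, and all 6 were in the table with 1 value per library. The libraries come from the proximal large intestine of 8 ApoE knockout mice that were bred germ-free, colonized by a single gavage at 8 weeks of age and dissected at 26 weeks. The core group (3 mice) carried a core community that makes no butyrate. The Roseburia group (5 mice) carried that community plus Roseburia intestinalis, a butyrate-producing bacterium. The ApoE deletion, the germ-free rearing and the core bacteria are common to both groups, so neither is a conventional mouse. The labels give no hour of dissection, sex, diet composition, cage or isolator, and mice of a group may have shared an isolator.

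The clock is a loop of transcription factors. CLOCK, or its paralogue NPAS2, pairs with BMAL1 (the product of Arntl), and the pair binds E-boxes to switch on the Per, Cry, Rev-erb and Dbp genes. PER and CRY proteins then block the pair. A second loop feeds back on Arntl: RORs activate it and the REV-ERBs, which bind haem and recruit a corepressor with HDAC3, repress it through the same DNA elements. Across a day Arntl and Npas2 RNA normally peak when Nr1d1 RNA is low. In the intestine this clock runs in the epithelium and in the muscle layer, and it follows feeding and microbial signals.

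The promoter of Arntl is shown because the second loop acts through elements of this kind, and that of Nr1d1 because the first loop does. All 6 genes matched RefSeq promoters (GRCm38.p6, 250 bases before to 50 after the start), with 9 starts in all. The deposited values were made on another build, mm9, per the submitters' processing notes. Capitals mark the ROR and REV-ERB core TAGGTCA and its variant TAGGTTA in Arntl (start 2, chr7:113207261-113207560, plus strand) and, in Nr1d1 (chr11:98775328-98775627, minus strand), an E-prime box, CACGTT read on the opposite strand.
Arntl: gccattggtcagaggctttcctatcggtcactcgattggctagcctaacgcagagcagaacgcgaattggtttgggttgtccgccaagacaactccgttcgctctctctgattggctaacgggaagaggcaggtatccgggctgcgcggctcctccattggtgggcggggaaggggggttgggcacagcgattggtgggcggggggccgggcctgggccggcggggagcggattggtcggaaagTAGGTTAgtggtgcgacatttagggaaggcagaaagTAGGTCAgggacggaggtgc
Nr1d1: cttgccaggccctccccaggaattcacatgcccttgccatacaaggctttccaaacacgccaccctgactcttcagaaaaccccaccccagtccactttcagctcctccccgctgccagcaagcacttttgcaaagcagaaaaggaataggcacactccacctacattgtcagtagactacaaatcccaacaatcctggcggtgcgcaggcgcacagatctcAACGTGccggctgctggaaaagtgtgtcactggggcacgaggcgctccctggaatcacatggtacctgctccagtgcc

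Both strands were searched for the E-box CACGTG, the E-prime box CACGTT, the receptor hexamer AGGTCA, the longer TAGGTCA that contains this hexamer, its variant TAGGTTA and the D-box TTATGNAA. Of 32851 promoters of this length, 7.15% held CACGTG, 4.68% CACGTT, 16.3% AGGTCA, 2.61% TAGGTCA, 1.44% TAGGTTA and 3.38% TTATGNAA. In Arntl start 2, TAGGTTA lay at bases −6 to 0 and TAGGTCA at 30 to 36, counted with 0 as the first transcribed base. That combination occurred in 16 of the 32851 promoters (0.0487%). The E-prime box of Nr1d1 lay at −28 to −23. Clock start 3 and Nr1d2 held 1 AGGTCA each, and the windows of Npas2 and Rora held no match to any of these 6 motifs. A match is a string of letters and was not tested for binding here.

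**Figure D1:**
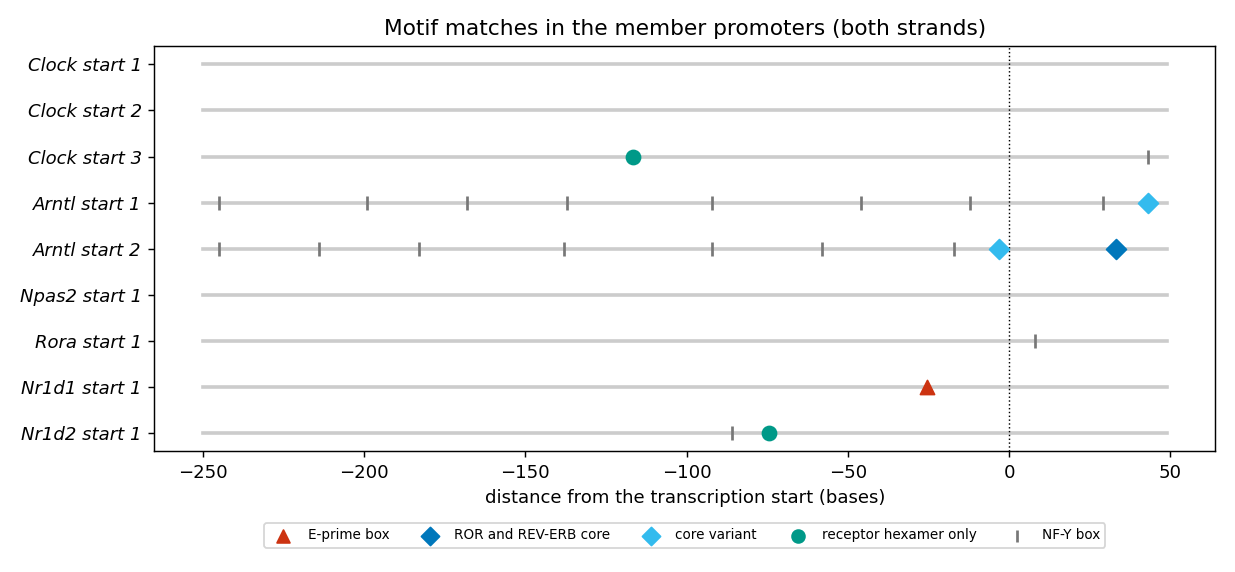
Motif matches (symbols) along the 9 promoter windows of the 6 genes, by distance from the transcription start in bases, with grey ticks for the CCAAT boxes bound by NF-Y. The ROR and REV-ERB core and its variant both appear in Arntl start 2, at 30 and −6, and the only E-prime box is in Nr1d1, at −28.

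Values are the authors' normalized values. Per kilobase of the longest coding transcript in GENCODE M21, Nr1d2 was the most abundant of the 6, at 294 ± 16.8 in core (SD, n = 3) and 307 ± 61.1 in Roseburia libraries (n = 5). Clock followed at 98.1 ± 15.1 and 73.9 ± 12.5, and Nr1d1 at 78.0 ± 19.6 and 94.0 ± 67.1. Those neighbours did not differ beyond their spread. By the median transcript length Clock had 127.9 and 96.3 and Nr1d1 78.0 and 94.0, so their order in Roseburia libraries depends on the transcript chosen. Arntl had 51.7 ± 8.45 and 43.9 ± 22.9 per kilobase, and Npas2 7.90 ± 2.38 and 9.51 ± 6.34. Rora was lowest at 0.800 ± 0.252 and 0.931 ± 0.542. The 8 libraries of Nr1d2 did not overlap those of any other member per kilobase, nor did those of Rora, while the ranges of Clock, Nr1d1 and Arntl overlapped one another. The Npas2 libraries, from 3.56 to 18.6, lay below those of Arntl, whose lowest had 22.8. By the median transcript length they overlapped, at 6.40 to 33.4 for Npas2 and 24.9 to 83.3 for Arntl.

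The comparison of the communities asks how a butyrate producer alters gene expression in the large intestine. Every difference below is on the log2(value + 1) scale, Roseburia minus core, from limma over all 8 libraries. Genes with a mean of at least 10 were tested, with Benjamini-Hochberg adjustment over 13020 genes. Rora missed that filter with a mean of 9.59, so 5 of the 6 were tested. By limma 0 of the 5 had an adjusted p below 0.05, against 0 of 13020 genes (0%). An unadjusted p below 0.05 was found for 1 of the 5, Clock, which was lower, against 3.69% of all genes lower and 8.13% in either direction. The groups overlapped in all 6 genes, whereas groups were apart in 5.84% of all tested genes, higher in 2.53% and lower in 3.31%. Of the 6, 0 reach a posterior probability of differential expression of 0.95 in the authors' deposited table, against 0.481% of its genes, 0.194% higher and 0.288% lower.

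Clock encodes the DNA-binding partner of BMAL1 and an acetyltransferase. Its normalized value was 1119, 835 and 915 in core replicates 1 to 3, and 546, 756, 801, 650.2 and 849 in Roseburia replicates 1 to 5. The groups overlapped by a single library, Roseburia replicate 5, which stood above core replicate 2. Without either of those libraries the groups were apart. The means were 956 ± 147 and 720 ± 122 (log2 difference −0.41, 95% interval −0.79 to −0.04, limma adjusted p = 0.588). The lowest value, 546, came from the library with the strongest preference for GC-rich genes, and the Clock transcript has a GC content of 40.9%. After a GC correction of each library the difference was −0.24 (95% interval −0.54 to 0.07, limma adjusted p = 0.601), and 0 of the 5 members then had an unadjusted p below 0.05, against 8.97% of 11747 genes. The difference ran from −0.51 to −0.30 when single libraries were left out, and its unadjusted p was above 0.05 without core replicate 1 or 3 or Roseburia replicate 1 or 4.

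Arntl, the gene of BMAL1, had 183, 144 and 135 in core libraries and 170.3, 67.9, 116, 72.0 and 228 in Roseburia libraries. The highest and the lowest of the 8 values were both from mice with R. intestinalis, whose replicates 2 and 4 lay below all others. The means were 154 ± 25.1 and 131 ± 68.1 (log2 difference −0.38, 95% interval −1.21 to 0.45, limma adjusted p = 0.698). That interval spans changes of either sign, so no difference was detectable with these mice. The authors' deposited table gives Arntl a posterior probability of differential expression of 0, and Clock one of 0.04.

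Npas2, the paralogue that can replace CLOCK, had 33.3, 23.4 and 43.6 in core libraries and 78.8, 15.1, 25.1, 24.8 and 57.5 in Roseburia libraries. Roseburia replicates 1 and 5 were the highest of all 8 and replicate 2 the lowest. The values rest on few reads, from an estimated 14 to 118 per library. The log2 difference was 0.06 (95% interval −1.04 to 1.15, limma adjusted p = 0.971), and its sign turned with the normalization, as given in the closing section.

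Among the receptors, Rora encodes RORα, an activator at ROR elements. It was read at 6.35, 11.7 and 8.04 in core libraries and 3.34, 19.4, 9.59, 10.6 and 7.67 in Roseburia libraries. These values stand for an estimated 4 to 21 reads per library, and the groups overlapped throughout. The difference of the mean log2 values was 0.06, with a 95% interval of −0.98 to 1.11 in the limma fit without a filter. That interval holds changes of either sign, so no difference was detectable at this depth.

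Nr1d1 encodes REV-ERBα, a haem-binding repressor. It had 176, 274 and 187 in core libraries and 565, 121, 197, 129.8 and 267 in Roseburia libraries. Roseburia replicate 1 exceeded every other library, while replicates 2 and 4 were the lowest. The means were 212 ± 53.3 and 256 ± 183 (log2 difference 0.05, 95% interval −0.92 to 1.02, limma adjusted p = 0.969). After the GC correction the difference turned to −0.20, and without Roseburia replicate 1 to −0.29. Its transcript has a GC content of 56.8%, the highest of the 6.

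Nr1d2 encodes REV-ERBβ, which shares the DNA element and the corepressor with REV-ERBα. It had 1314, 1340.2 and 1461 in core libraries and 1184, 1843, 1611, 1214 and 1313 in Roseburia libraries. It was the steadiest of the 6, with the highest library 1.56 times the lowest, against 4.68 times for Nr1d1 and 5.22 times for Npas2. The log2 difference was 0.04 (95% interval −0.32 to 0.40, limma adjusted p = 0.925). The interval leaves out a change of 1.5-fold in either direction, and after the GC correction it was −0.09 to 0.51 around 0.21. Its sign is set by single libraries, as it became −0.05 without Roseburia replicate 2.

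**Figure D2:**
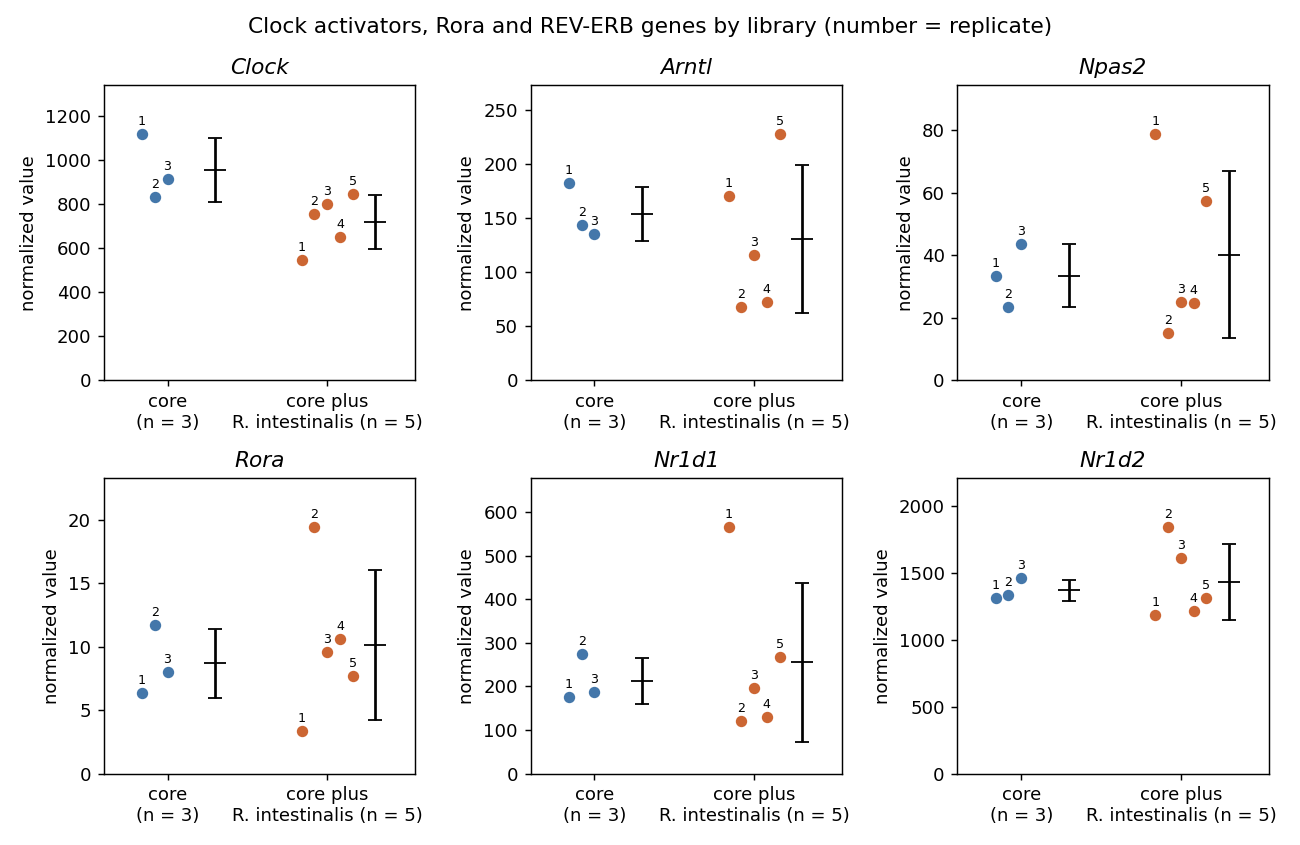
Normalized values of the 6 genes in each library (points, numbered by replicate). Bars give each group's mean with its SD, over 3 core and 5 Roseburia libraries. Clock averages 956 against 720 with 1 library in overlap, and Arntl, Npas2 and Nr1d1 spread more widely with R. intestinalis than in core.

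The SD of the log2 values was larger over the 5 Roseburia libraries than over the 3 core libraries for each of the 6 genes. The SD of Arntl was 0.23 in core and 0.76 in Roseburia libraries. For Npas2 it was 0.44 and 0.95, for Rora 0.40 and 0.81, for Nr1d1 0.34 and 0.90, and for Nr1d2 0.08 and 0.28. For Clock it was 0.22 and 0.26. With 3 core mice the difference in spread was not tested. Its share over all genes was not worked out, so whether it is particular to these genes is not known. The sample names number the core libraries from 3 to 5, and any core library with another number was not analysed here, so the core spread rests on these 3.

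Pairs of the 6 genes were compared from mouse to mouse. Over 15 pairs and 8 libraries, 1 pair passed an exact permutation test with Benjamini-Hochberg adjustment over the pairs. Npas2 and Rora ran in opposite directions (Pearson r = −0.91, two-sided exact permutation p = 0.00243, adjusted p = 0.0365; Spearman rho = −0.93, exact p = 0.00223, adjusted p = 0.0335). The r was −0.89 without the 2 libraries farthest from the median of Npas2, and −0.85 after the GC correction. Rora is highest, at 19.4, in the mouse where Npas2 is lowest, at 15.1, and lowest, at 3.34, where Npas2 is highest, at 78.8. Both genes have few reads, and the reads of a library are common to both.

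The 3 pairs among Arntl, Npas2 and Nr1d1 had positive correlations that did not pass the adjustment. Arntl and Npas2 had r = 0.76 (exact permutation p = 0.0312, adjusted p = 0.117; rho = 0.71, exact p = 0.0576), and Npas2 and Nr1d1 r = 0.79 (exact permutation p = 0.0189, adjusted p = 0.117; rho = 0.57, exact p = 0.151). Arntl and Nr1d1, an activator gene and the repressor of that gene, had r = 0.68 (exact permutation p = 0.0579, adjusted p = 0.124; rho = 0.62, exact p = 0.115). Clock had r between −0.40 and 0.33 with the other 5. Without the 2 libraries farthest from the median of the first gene, r of the 3 pairs was 0.59, 0.37 and 0.28, so the last relations rest on those libraries. After the GC correction r was 0.79, 0.72 and 0.79. The Nr1d1 value was 0.965, 1.90 and 1.38 times the Arntl value in core libraries, and 3.32, 1.78, 1.70, 1.80 and 1.17 times in Roseburia libraries. Roseburia replicates 2 and 4, the lowest for Arntl and for Nr1d1, thus had nearly the ratio of core replicate 2.

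**Figure D3:**
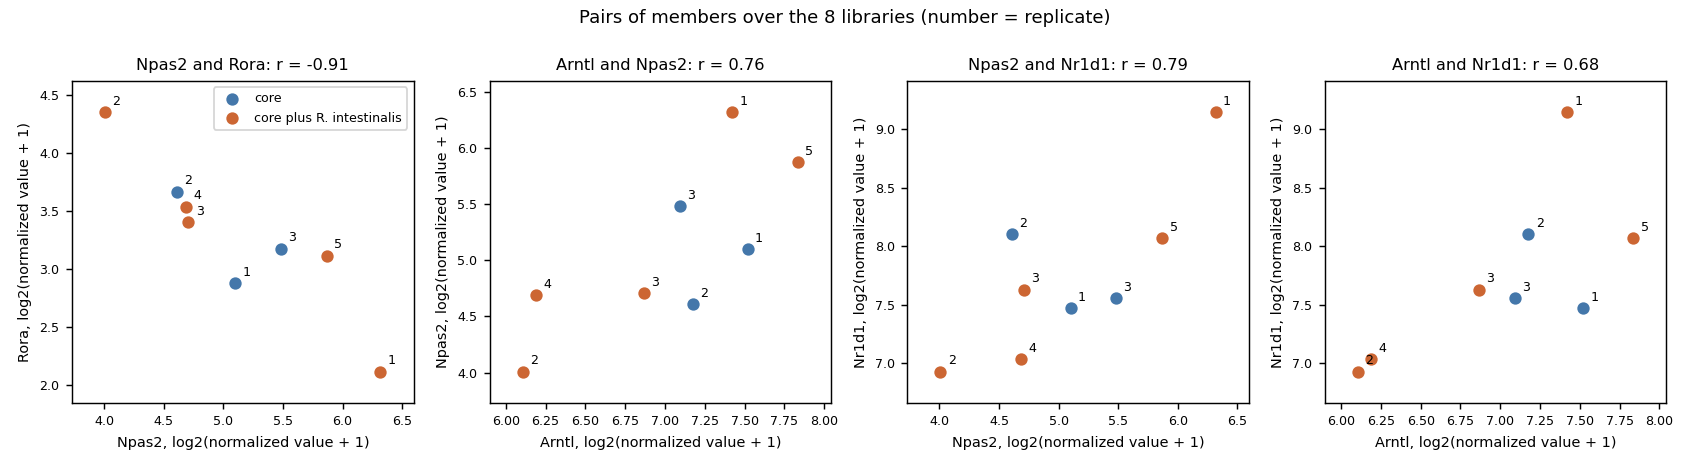
Pairs of genes over the 8 libraries, each axis in log2(normalized value + 1), with points numbered by replicate and coloured by group. Npas2 and Rora fall along a descending line (r = −0.91), and the other 3 pairs ascend, with r from 0.68 to 0.79.

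Library traits moved with these values. The GC slope of a library, the log2 deviation of 11747 genes per 10 percentage points of transcript GC content, was −0.31, 0.07 and −0.29 in core libraries and 0.57, −0.32, 0.04, 0.01 and 0.23 in Roseburia libraries. The steepest library, Roseburia replicate 1, had the highest Nr1d1 and Npas2 values, transcripts of 56.8% and 52.3% GC. It had the lowest Clock, Rora and Nr1d2 values, transcripts of 40.9%, 40.9% and 41.8% GC. After the correction its log2 deviation went from 1.40 to 0.87 for Nr1d1, from −0.54 to −0.15 for Clock and from −0.24 to 0.12 for Nr1d2, while Npas2 stayed high at 1.02.

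The second trait is position along the colon, read here from Hoxb13 alone. Hoxb13, which marks the distal colon, was 141, 439 and 25.3 in core libraries and 247, 2.16, 394, 8.26 and 663 in Roseburia libraries. Hoxd13, another listed distal marker, was 7.94, 47.9 and 4.59 in core libraries and 0.67, 2.16, 21.5, 1.18 and 46.0 in Roseburia libraries. It was lowest in Roseburia replicate 1, so the markers do not place that library alike. Roseburia replicates 2 and 4, the lowest for Hoxb13, were also the lowest for Arntl and for Nr1d1, and Roseburia replicate 5, the highest for Hoxb13, was the highest for Arntl. Over the 8 libraries and 6 genes, a relation looked at after the values were seen, Hoxb13 had r = 0.83 with Arntl (two-sided exact permutation p = 0.0126, adjusted p = 0.0757; rho = 0.71, exact p = 0.0576). With Nr1d1 it had r = 0.70 (exact permutation p = 0.0456, adjusted p = 0.137; rho = 0.81, exact p = 0.0218). Without those 2 libraries r was 0.31 and 0.34, so both relations rest on them. With Hoxb13 as a covariate the group difference was −0.26 for Arntl (limma adjusted p = 0.544), −0.41 for Clock (0.237) and 0.18 for Nr1d1 (0.765).

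**Figure D4:**
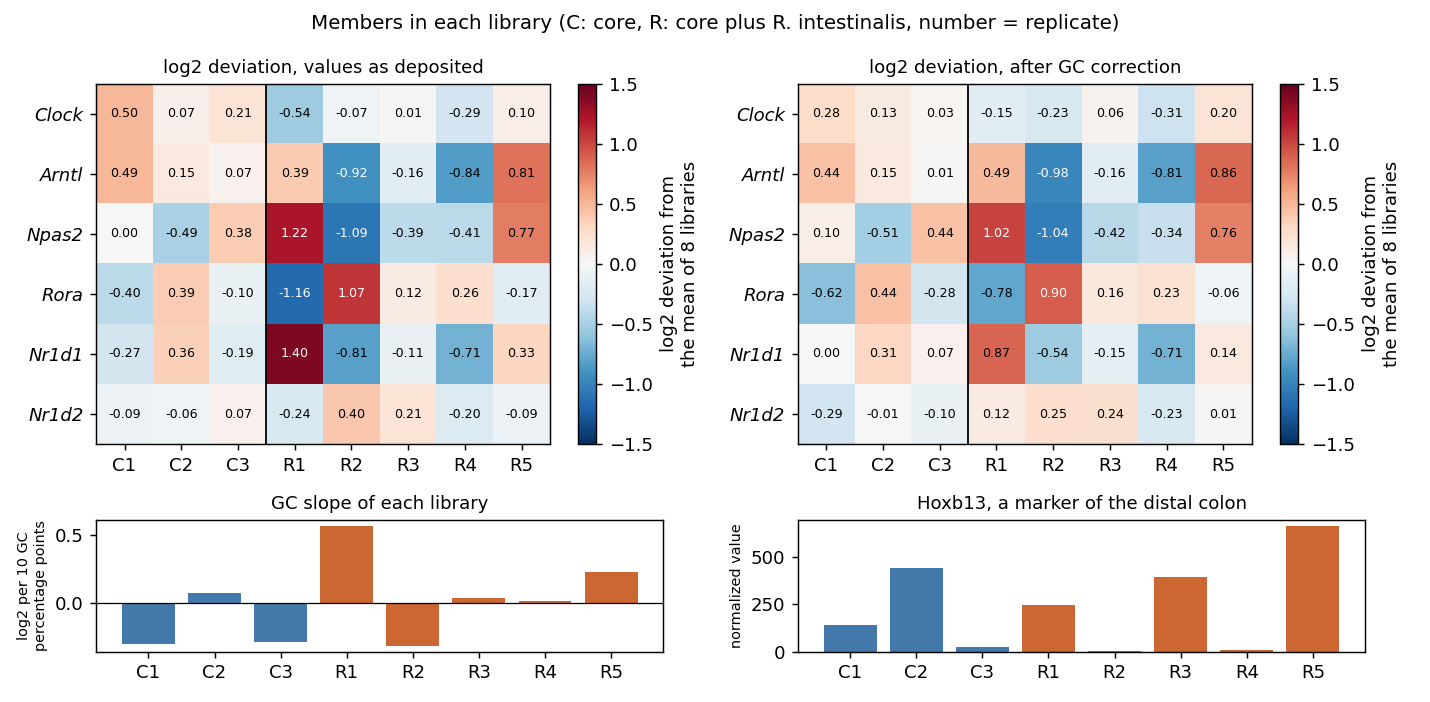
Log2 deviation of each gene from its mean over the 8 libraries, as deposited (left) and after a GC correction (right), with the GC slope and the Hoxb13 value of each library below. The slope is steepest in R1 at 0.57, where the Nr1d1 deviation falls from 1.40 to 0.87, and Hoxb13 is lowest in R2 and R4, the libraries lowest for Arntl.

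The tissue's cell makeup bears on bulk values, in which fewer cells of a type and less RNA per cell cannot be told apart. Epithelium was present in every library, as Krt20, Cdh17 and Vil1 were read at 2373 or more, and all 8 colonocyte markers were above 0 throughout. Aqp8 of that list ran from 47.4 (Roseburia replicate 2) to 2866 (Roseburia replicate 5). Of the colonocyte markers 1 of 8 had an unadjusted limma p below 0.05, Vil1, which was higher with R. intestinalis, and the median log2 difference was 0.13. The 5 tested of 7 small intestine markers were all above 0 (median 1.33, 1 with an unadjusted p below 0.05). Among them Sis was 22.2, 11.7 and 580 in core libraries and 11.35, 945, 429, 1370 and 28.1 in Roseburia libraries. Connective tissue markers were lower beside Clock. The 7 fibroblast markers were all below 0 with a median of −0.62 and 3 with an unadjusted p below 0.05, and their summed value was 8090 to 9260 in core and 4796 to 7190 in Roseburia libraries. Of the 7 smooth muscle markers 6 were below 0 (median −0.36, 3 with an unadjusted p below 0.05), with overlapping sums of 128378 to 177524 and 86234 to 153350. All 4 endothelial markers (median −0.33) and the 5 tested of 6 adipocyte markers (median −1.92) were below 0 too. So were all 5 macrophage markers (median −0.24) and 5 of 7 markers of enteric neurons and glia (median −0.38). Over all genes tested 49.6% were above 0, and 3.69% were lower with an unadjusted p below 0.05. The part of these cells in the Clock difference was not tested.

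The rest of the clock pathway was taken from lists, in which 46 genes other than the 6 were tested. The lists were chosen with earlier results of these data known, so their shares are a description only. An unadjusted p below 0.05 was found for 8 (17.4%), all 8 higher with R. intestinalis, against 4.44% of all genes higher and 3.69% lower. By limma 0 had an adjusted p below 0.05. The median log2 difference of the 46 was 0.15, beside −0.003 over all genes tested. Of the 46, 33 were above 0, against 49.6% of all genes tested.

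Rorb, a paralogue of Rora, was listed at 0 in 6 libraries and at less than 1 in the others. Among the corepressor genes that REV-ERBs use, Ncor1 had a difference of 0.10, Hdac3 0.03 and Tbl1xr1 −0.14 on the log2 scale, each with an unadjusted limma p above 0.05. The coactivator genes Crebbp and Ep300 had 0.47 (limma adjusted p = 0.588) and 0.35 (0.610), and Nono, a clock cofactor, −0.27 (0.601). Of the 13 tested paralogues and cofactors 9 were above 0, and the median was 0.10.

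Haem is the ligand of the REV-ERBs. Of the 12 haem enzymes 0 had an unadjusted p below 0.05, with a median of 0.003 and 6 genes on each side of 0. Alas1, the rate-limiting enzyme of haem synthesis, averaged 752 ± 120 and 1015 ± 212 (log2 difference 0.42, limma adjusted p = 0.588). Hmox2, the constitutive haem oxygenase, averaged 558 ± 30.8 and 464 ± 67.8 (log2 difference −0.28, adjusted p = 0.591). Uros and Ppox, both of haem synthesis, had −0.23 and 0.34.

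Genes switched on by CLOCK and BMAL1 through E-boxes lay mostly above 0. Of 13 tested, 12 were above 0 with a median of 0.52, against 49.6% of all genes above 0. There were 6 with an unadjusted p below 0.05, all higher, against 4.44% of all genes higher. Nr1d1 and Nr1d2, which belong to this list too, had the differences nearest to 0 in it. Of the 7 tested repressors, 7 were above 0 (median 0.75) and 4 had an unadjusted p below 0.05, namely Per2, Per3, Cry2 and Bhlhe40. Those 4 are also on the E-box list, as are Per1 and Cry1, so the counts of the lists are not separate. Cry2, which blocks the CLOCK and BMAL1 pair, averaged 113 ± 15.6 and 202 ± 60.9 (log2 difference 0.79, limma adjusted p = 0.588), with groups apart. Per2 averaged 206 ± 126 and 324 ± 68.0 (log2 difference 0.84, adjusted p = 0.588) and overlapped. Its difference was 0.29 without core replicate 3 and 1.30 without core replicate 2. That of Bhlhe40 was 0.67 and became 0.44 without core replicate 1, with an unadjusted p above 0.05. After the GC correction the difference was 0.58 for Cry2, 0.78 for Per3, 0.70 for Per2 and 0.69 for Bhlhe40. Of these only Per2 then had an unadjusted limma p above 0.05 (0.0759).

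The output list held 6 tested genes with a median of 0.21, of which Usp2 and Tef had an unadjusted p below 0.05. Usp2, a deubiquitinase under clock control, had a log2 difference of 1.07 (limma adjusted p = 0.588) and groups apart. With library weights its limma adjusted p was 0.0377, but 29.4% of all genes then had an unadjusted p below 0.05. In that setting Per3, Cry2, Bhlhe40, Tef and Csnk1d each had a limma adjusted p of 0.0416. In the authors' deposited table Usp2 has a posterior probability of 0.99 and a raw fold change of 2.1. Tef, a bZIP factor that binds D-boxes, averaged 539.9 ± 200 and 754 ± 134, and its difference of 0.52 became 0.37 without core replicate 1, with an unadjusted p above 0.05. Ccrn4l, the deadenylase nocturnin, had a difference of 0.27, which ran from 0.018 without core replicate 3 to 0.50 without Roseburia replicate 2. Hlf had −0.18, which ran from −0.43 to 0.075 without single libraries. Among 8 kinases and ligases, Csnk1d, which phosphorylates PER, averaged 302 ± 37.2 and 484 ± 143 (log2 difference 0.64, adjusted p = 0.588) with groups apart, and was the only gene of that list with an unadjusted p below 0.05. Csnk1e and Btrc had 0.43 and 0.20. After the GC correction the difference was 0.96 for Usp2, 0.42 for Tef, 0.50 for Csnk1d, 0.19 for Csnk1e and 0.34 for Btrc. Genes known to be controlled through ROR and REV-ERB elements had no common direction. Of 6 tested, 4 were above 0 (median 0.05), with Cry1 at 0.50. The members Clock, Arntl, Npas2 and Nr1d1 are among those 6, so this list largely repeats their results. An unadjusted p below 0.05 was found for 1 higher gene and for 1 lower gene, Clock, against 4.44% and 3.69% of all genes.

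**Figure D5:**
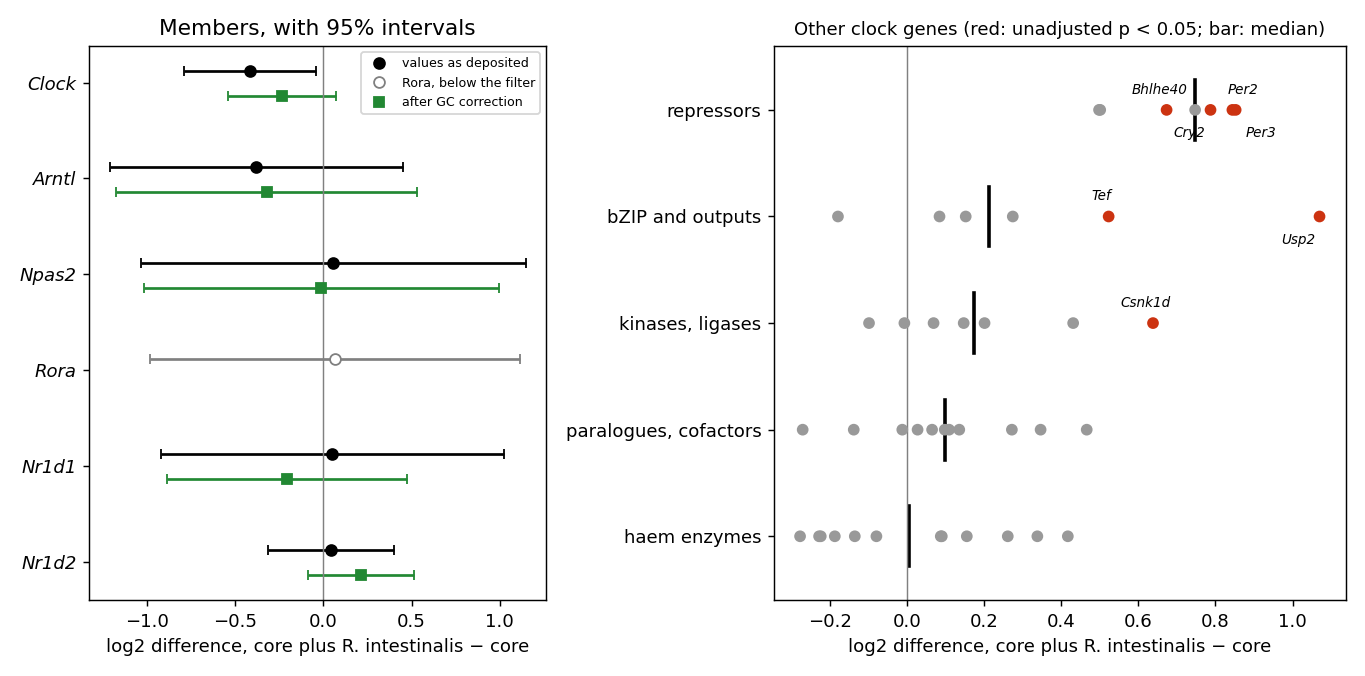
Left, log2 differences of the 6 genes with 95% intervals, as deposited and after a GC correction. Right, the differences of the other tested clock genes by list (points), with medians of the whole lists (bars) and 3 genes not shown, where the 7 repressors all lie above 0 and the haem enzymes centre on 0.003.

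The hour of dissection decides where in the cycle each of these genes is caught, and it is not given in the labels. Its part in any of these differences was not tested.

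Among 9568 other genes with a mean of at least 50, those whose pattern over the 8 libraries was most like that of a member were found by Pearson r on the log2(value + 1) scale, as a description without a test, since the highest of so many r is large by selection. For Clock they were Adam17 (r = 0.994), Pdxdc1 (0.989) and Cnot6l (0.986). For Arntl they were Ube2a (0.995), B3galt5 (0.971) and Pmp22 (0.960). For Npas2 they were Sox9 (0.970), a transcription factor of the crypt base, Asxl1 (0.948) and Grhl2 (0.943), an epithelial transcription factor. For Nr1d1 they were Rcan3 (0.992), Stxbp5 (0.983) and Stau1 (0.981), for Nr1d2 Vps8 (0.963), Mef2a (0.946) and Etaa1 (0.944), and for Rora Aldh1a3 (0.939), Aqr (0.934) and Hsd11b1 (0.932). No gene of the clock lists was among these 18.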

How the data were processed

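Stranded mRNA libraries (Illumina TruSeq) were made from TRIzol and column extracts of frozen tissue, per the labels' protocols. The submitters' processing notes list Bowtie2, RSEM 1.2.23 and mm9 without saying what each did. No source used here names the annotation or the program that gave the posterior probabilities. Each gene and library has in the deposited table a normalized expression signal, which the authors scaled per library. It also holds the authors' posterior probability, a score from 0 to 1, and fold changes, a deposited ratio of the Roseburia to the core group. That ratio matched the ratio of group means within 2% or 0.01 in 100% of the 12936 genes whose core mean was 10 or more. Depth was estimated from the step between low values, on which 79.9% to 84.3% of values under 30 lay within 0.05 of a step. It ran from 4605421 reads (core replicate 1) to 15345326 (Roseburia replicate 3), and whole reads were not assumed.

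The log2(value + 1) scale was used, on which fold changes of genes with few reads come out too small. Limma 3.58.1 in R 4.3.3 was fitted with a mean-variance trend, after a test on simulated data. The labels do not say that libraries come from separate litters or cages, so the p-values reflect only how much these individual mice varied. Alternatives were pseudocounts of 0.5 and 5, no filter, a mean of at least 50, trimmed mean rescaling, quantile normalization, no trend, library weights, each library left out and replicate blocks. A GC correction (lowess, span 0.3, on the longest coding transcript of GENCODE M21), Hoxb13 as a covariate and the likeness values with each library left out were chosen after seeing the data. The members and lists were chosen with earlier results of these data known. The named genes were the 6 members, the 4 tested genes with the smallest p in each pathway list and the 3 genes most like each member, leaving out predicted genes, Riken clones, ribosomal proteins and antigen receptor segments. Ncor1, Hdac3, Tbl1xr1, Rorb and the marker genes named fall outside that rule and were added after their values were seen. A few genes that the rule names are not reported here.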

Additional observations from a re-analysis of the deposited data

How the results depend on the processing

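Direction and the side of the adjusted threshold held for Clock and Arntl under every alternative run. Without single libraries Clock ran from −0.51 to −0.30 and Arntl from −0.62 to −0.19. The signs of Npas2, Nr1d1 and Nr1d2 were not stable. Npas2 became −0.016 with quantile normalization, −0.31 with library weights, −0.052 with the title number as a replicate block and −0.013 after the GC correction. Nr1d1 became −0.13 with the sample name number as a replicate block and −0.20 after the GC correction, and Nr1d2 became −0.0010 with that block. Without single libraries Npas2 ran from −0.24 to 0.33, Nr1d1 from −0.29 to 0.26, Nr1d2 from −0.054 to 0.11, and Rora from −0.20 to 0.36. Hlf ran from −0.43 to 0.075 and was 0.0048 with the title block. The cause was not tested.

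The 0 genes past the adjusted threshold became 455 with library weights and 0 to 1 without single libraries. The 1 member with an unadjusted p below 0.05 became 0 without a trend, with either replicate block and after the GC correction, and ran from 0 to 1 without single libraries (0 without core replicates 1 or 3, or Roseburia replicates 1 or 4). The 0 members with groups apart became 1 without core replicate 2 or Roseburia replicate 5 (range 0 to 1). The 8 further clock genes became 18 with library weights and 14 with Hoxb13 as a covariate, settings in which the share over all genes went from 8.13% to 29.4% and 18.4%. They ran from 4 (without core replicate 1, where the share over all genes was 2.07%) to 11 without single libraries. Same-numbered libraries did not deviate together (correlations −0.53 to −0.07 by title number and −0.49 to −0.01 by sample name number). With so few libraries this cannot exclude a pairing by litter, isolator or batch, which the labels do not give. With the title block 395 genes had an unadjusted p below 0.05, with the sample name block 851, and without a block 1058. Depth limits Rora, at 4 to 21 estimated reads, and Npas2, at 14 to 118.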

Other observations

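The Arntl promoter printed above also holds 7 CCAAT boxes, all on the opposite strand and so read as attgg in the printed sequence. CCAAT boxes are bound by the factor NF-Y. They lie at −247, −216, −185, −140, −94, −60 and −19 from start 2, and the window of start 1 holds 8. Of all promoters of this length 37.4% hold at least 1, and 0.0122% hold 7 or more. Of the other 5 genes, Clock (start 3), Rora and Nr1d2 hold 1 each. This was noticed after the sequences were seen, and it is a count of letters in a window.

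Per library, Arntl was 0.163, 0.172 and 0.148 times Clock in core and 0.312, 0.0899, 0.144, 0.111 and 0.268 times Clock with R. intestinalis. The core ratios lie close together, and the ratios with R. intestinalis reach beyond them on both sides.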
